A study of Mus musculus with 12 samples.

Results

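Receptors for the Fc part of IgG let microglia, the resident macrophages of the brain, bind antibody-coated material. *Fcgr1* (FcγRI, the high-affinity receptor), *Fcgr3* (FcγRIII) and *Fcgr4* (FcγRIV) encode activating receptors, which signal through the common γ chain *Fcer1g*, an adaptor whose cytoplasmic tail carries an immunoreceptor tyrosine-based activation motif (ITAM). The tyrosine kinase *Syk* docks on the phosphorylated ITAM and starts signalling towards phagocytosis and the oxidative burst. *Fcgr2b* (FcγRIIB) encodes the inhibitory receptor, whose tail carries an inhibitory motif (ITIM) that recruits the phosphatase SHIP1. *Fcgrt* encodes the neonatal Fc receptor, which pairs with β2-microglobulin and returns IgG and albumin from endosomes to the surface. TREM2 is not an Fc receptor, but its partner DAP12 (*Tyrobp*) is an ITAM adaptor that also signals through Syk.

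These 7 genes were followed by name, and each matched 1 Ensembl identifier among the 48623 genes of the table. All 7 passed the limit for expressed genes, so all were among the 11204 genes tested. Primary microglia came from cortex and hippocampus of newborn C57BL/6J mice, grown in mixed glial culture and isolated by mild trypsinization. Mice were wild type (WT) or carried the R47H allele of *Trem2* on both chromosomes (KI), a knock-in that in mice also lowers *Trem2* expression through a splice effect. The WT mice are described as littermates of the KI mice, and in this line each pup was cultured on its own and genotyped afterwards. Each of the 3 WT cultures (T13, T33, T43) and 3 KI cultures (T15, T22, T32) was sequenced both without treatment and after exposure to 20 ng/ml interleukin-4 (IL-4), an anti-inflammatory cytokine, for 48 h, so that there were 12 libraries in 4 groups of 3. Levels are TPM, transcript abundances corrected for length and scaled to a common total, so that genes can be compared with each other. TPM carries no read counts, so the number of reads behind a value could not be computed from it. Differences are on the log2(TPM + 1) scale and were tested with limma. For genotype the F-test took the genotype and interaction terms together, and for IL-4 the IL-4 and interaction terms. A genotype or IL-4 difference and its SE are averages over both treatments or both genotypes. Unless stated, the adjusted p beside them is of the F-test, not of that average alone. The threshold was a Benjamini-Hochberg adjusted p of 0.05 over all genes tested. The main fit took the 12 libraries as independent, although each culture gave an untreated and an IL-4 library. Its p-values therefore measure the spread between these libraries only. An alternative fit took the culture as a replicate block. Nothing in the labels says which cultures share a litter.

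The labels were checked first. *Trem2* was between 1190 and 1886 TPM in the 6 WT libraries and between 325 and 770 TPM in the 6 KI libraries. All 18 microglial markers were detected, but *Siglech* had a median of 0.173 TPM, *Sall1* of 2.89 TPM and *P2ry12* of 17.8 TPM. The summed level of these markers was 21653 to 24032 TPM in untreated WT and 10196 to 19950 TPM in untreated KI libraries, and 24361 to 32548 TPM in WT and 16757 to 22367 TPM in KI libraries after IL-4. Their mean log2 level was 0.55 lower in KI than in WT. The 10 astrocyte markers summed to 167 to 691 TPM in untreated WT and 220 to 4788 TPM in untreated KI libraries, and the mural and fibroblast markers to 142 to 328 TPM and 1067 to 1327 TPM. After IL-4 the mural and fibroblast sums were 238 to 617 TPM in WT and 704 to 1198 TPM in KI. In untreated KI culture T32, *Acta2* (787 TPM) and *Tagln* (509 TPM) made up most of the 1327 TPM. *Pdgfrb* was at most 9.59 TPM and *Rgs5* at most 0.79 TPM in any library. Culture T15 stood apart, with the lowest microglial and the highest astrocyte sum of the untreated libraries. The B cell marker *Cd79a* and the neutrophil marker *Ly6g* were listed at 0 in all 12 libraries. In the same list of lymphocyte and granulocyte markers, *S100a8* was at 0 in only 4 libraries. Its median was 2.19 TPM and its highest level 14.85 TPM. In bulk RNA, fewer microglia in a culture and less RNA per microglia cannot be told apart. The paper reports that the share of microglia among cells did not differ substantially between WT and KI cultures, untreated or with IL-4. It does not say whether the sequenced cultures were among those counted.

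On GRCm38, 4 of the genes lie within 275.7 kb of chromosome 1: *Fcgr2b* (170958617 to 170976547, minus strand), *Fcgr4* (171018920 to 171029761, plus strand), *Fcgr3* (171051174 to 171064935, minus strand) and *Fcer1g* (171229572 to 171234365, minus strand). *Fcgr1* lies on chromosome 3 (96282909 to 96293969, minus strand), *Fcgrt* on chromosome 7 (45092990 to 45103851, minus strand) and *Syk* on chromosome 13 (52583173 to 52648792, plus strand). *Fcgr2b* and *Fcgr3* encode similar receptors. Of the 31-base words in *Fcgr3* transcripts, 13.4% also occur in *Fcgr2b* transcripts, where they are 4.15% of the words. The share of reads that could come from either gene was not measured. *Fcgr1* and *Fcer1g* shared no 31-base word with another gene. An antisense gene overlaps *Fcgr2b* by 3175 bases but was listed at 0 in every library. Another antisense gene overlaps *Fcgrt* by 5331 bases at up to 6.60 TPM. No strand setting is given for these libraries, but of the 31-base words in *Fcgrt* transcripts only 1.88% occur, on either strand, in transcripts of any other gene. A small nuclear RNA gene lies within the *Fcgr4* span on the same strand over 165 bases, at up to 5.75 TPM, and 1.39% of the 31-base words of *Fcgr4* occur in another gene.

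The sequences before the RefSeq start sites are shown for *Fcgr2b* and *Fcgr3*, whose levels were higher with IL-4 in every culture, and for *Fcgr1*, which was lower in most cultures. They are the 250 bases before the start, from the RefSeq promoter table on GRCm38.p6, which held 9 promoters for the 7 genes. Capitals mark matches, on either strand, to GAGGAA, a core bound by the myeloid factor PU.1. The other pattern searched was TTCNNNNGAA, the spacing that STAT6, the factor activated by IL-4, prefers. The 3 stretches are chr1:170976072-170976321, chr1:171059404-171059653 and chr3:96293970-96294219, all on the minus strand.
*Fcgr2b*: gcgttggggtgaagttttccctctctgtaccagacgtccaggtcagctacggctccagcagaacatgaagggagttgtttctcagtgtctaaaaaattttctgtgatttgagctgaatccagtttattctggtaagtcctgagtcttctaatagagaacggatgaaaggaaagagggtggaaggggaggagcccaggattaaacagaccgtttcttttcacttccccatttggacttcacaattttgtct
*Fcgr3*: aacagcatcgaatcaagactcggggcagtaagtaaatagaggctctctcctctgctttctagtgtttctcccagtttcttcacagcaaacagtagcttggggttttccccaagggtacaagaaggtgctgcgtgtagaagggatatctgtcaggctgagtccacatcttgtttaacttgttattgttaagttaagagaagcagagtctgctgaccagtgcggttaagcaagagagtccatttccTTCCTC
*Fcgr1*: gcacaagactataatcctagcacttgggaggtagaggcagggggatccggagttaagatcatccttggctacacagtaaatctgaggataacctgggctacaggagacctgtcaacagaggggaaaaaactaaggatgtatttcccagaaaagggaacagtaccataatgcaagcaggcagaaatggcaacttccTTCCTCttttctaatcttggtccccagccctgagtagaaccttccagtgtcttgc
GAGGAA was found on the opposite strand in *Fcgr3*, beginning 6 bases before the start, in *Fcgr1* (55 bases) and in *Fcgr4* (22 bases), and on the same strand before 1 of the 2 *Syk* starts (9 bases). Of 32851 promoters of the same length, 23.3% held it. None of the 9 held TTCNNNNGAA, which 5.85% of all promoters held. No matches of the patterns overlapped. A match in this window is a description of the letters, not of binding.

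The 7 genes spanned a wide range of levels. *Fcer1g* had a mean of 2884 TPM over the 12 libraries and ranked 30th in the table by mean level. *Fcgr3* followed with 638 TPM and *Fcgr2b* with 236 TPM. *Fcgr1* (58.6 TPM), *Fcgrt* (56.2 TPM), *Syk* (21.0 TPM) and *Fcgr4* (12.5 TPM) were lower. The adaptor transcript was thus above the 4 Fcγ receptor transcripts together in all 12 libraries, by 1.80 to 5.60 times. *Fcgr3* made up 59.6% to 80.0% of the summed TPM of the 4 Fcγ receptors.

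**Figure D1:**
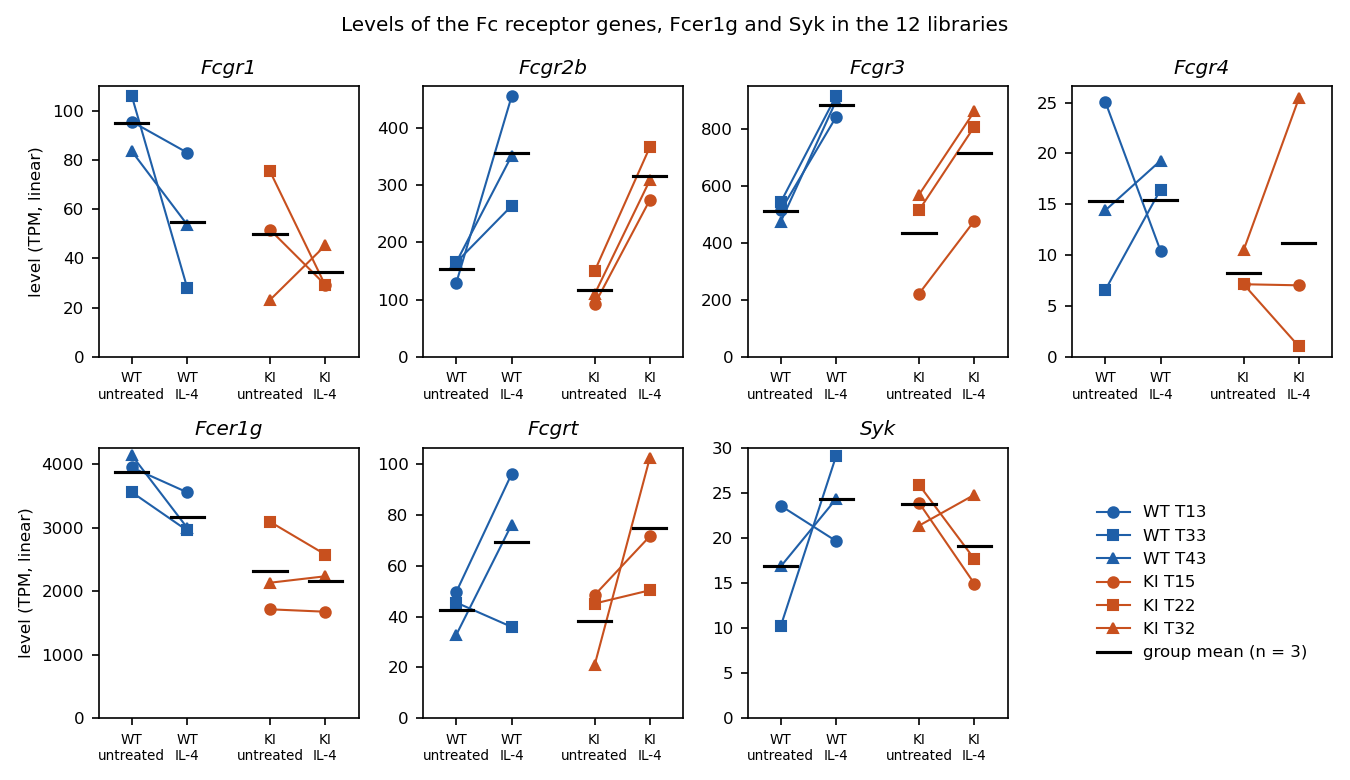
TPM (linear axis) of each of the 7 genes in the 12 libraries, by genotype and treatment; a line joins the untreated and IL-4 libraries of a culture, and the black bar is the mean of 3 libraries. *Fcgr2b* and *Fcgr3* are higher with IL-4 in all 6 cultures, and the KI points of *Fcer1g* all lie below the WT points of that treatment.

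The IL-4 comparison asked which of these genes respond to the cytokine. The inhibitory receptor *Fcgr2b* rose 2.49-fold on the TPM + 1 scale and was the only 1 of the 7 past the threshold; over all genes tested, 0.893% passed in either direction and 0.75% rose. *Fcgr3* was 1.73-fold higher and was also higher in 6 of 6 cultures. These 2 of 7 genes were higher with IL-4 in every culture, against 5.73% of all genes tested. The share of all genes whose treatment groups did not overlap was not computed. The median IL-4 difference of the 7 genes was 0.12, beside 0.04 for all genes tested.

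Without IL-4, WT cultures T13, T33 and T43 held 129, 165 and 165 TPM of *Fcgr2b*, and with it 455, 264 and 351 TPM. KI cultures T15, T22 and T32 held 91.6, 149 and 109 TPM without and 274, 366 and 308 TPM with IL-4. Every IL-4 library was above every untreated library, whatever the genotype, so the ranges did not overlap. The difference was 1.32 ± 0.16 (SE; limma, adjusted p = 0.0018). It was 1.19 in WT and 1.45 in KI, and the difference between the genotypes was 0.26 with a 95% interval of -0.42 to 0.95. In order of mean level, WT with IL-4 (356 ± 95.7 TPM, SD, n = 3) and KI with IL-4 (316 ± 46.7) overlapped, as did untreated WT (153 ± 20.7) and untreated KI (117 ± 29.6). Relative to the microglial markers of the same library the IL-4 difference was 1.34.

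In the same order of cultures, *Fcgr3* was at 515, 544 and 476 TPM in untreated WT and at 843, 918 and 900 TPM in IL-4-treated WT libraries. In KI it was at 222, 516 and 570 TPM untreated and at 478, 810 and 863 TPM treated. The WT groups did not overlap, whereas the KI groups did, and culture T15 was the lowest KI culture in both states. The difference was 0.79 ± 0.21 (SE; limma, adjusted p = 0.32), which did not pass, nor did the average tested alone (limma, adjusted p = 0.11). With the culture as a replicate block it was 0.79 ± 0.09 (SE; limma, adjusted p = 0.00074), in a fit where 2.14% of all genes passed in either direction. Without culture T15 it was 0.71 (limma, adjusted p = 0.0029), and without any other single culture the adjusted p was 0.38 to 0.97. The sum of *Fcgr2b* and *Fcgr3* was 1.66 to 2.40 times higher with IL-4 in the 6 cultures.

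The other activating receptors did not follow *Fcgr3*. For *Fcgr1*, the WT values of T13, T33 and T43 were 95.5, 106 and 83.5 TPM untreated and 82.9, 28.1 and 53.7 TPM treated. The KI values of T15, T22 and T32 were 51.6, 75.3 and 23.1 TPM untreated and 29.2, 29.0 and 45.3 TPM treated. It was lower with IL-4 in 5 of 6 cultures and higher in T32, with a difference of -0.65 ± 0.29 (SE; limma, adjusted p = 0.80) that was -0.99 without T32, -0.42 without T22 and -0.41 without T33. Untreated WT was above WT with IL-4 with no overlap, the nearest values being 83.5 and 82.9 TPM, and the other neighbouring groups overlapped. *Fcgr4*, the least abundant of the set, ranged from 1.03 to 25.4 TPM, both in KI libraries with IL-4, and was lower in 3 cultures and higher in 3. Its difference was -0.07 ± 0.51 (SE; limma, adjusted p = 1.00), and no pair of neighbouring groups was apart.

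*Fcgrt* had means of 42.7 ± 8.77 TPM in untreated WT, 69.3 ± 30.6 TPM in WT with IL-4, 38.1 ± 15.1 TPM in untreated KI and 74.7 ± 26.2 TPM in KI with IL-4 (SD, n = 3). All neighbouring groups overlapped. It was higher with IL-4 in 5 of 6 cultures and lower in T33, and the difference of 0.79 ± 0.28 (SE; limma, adjusted p = 0.62) did not pass and was 0.48 without T32. Its partner *B2m*, at 5055 to 13780 TPM, was higher in 6 of 6 cultures by 0.32 ± 0.20 (SE; limma, adjusted p = 0.96).

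**Figure D2:**
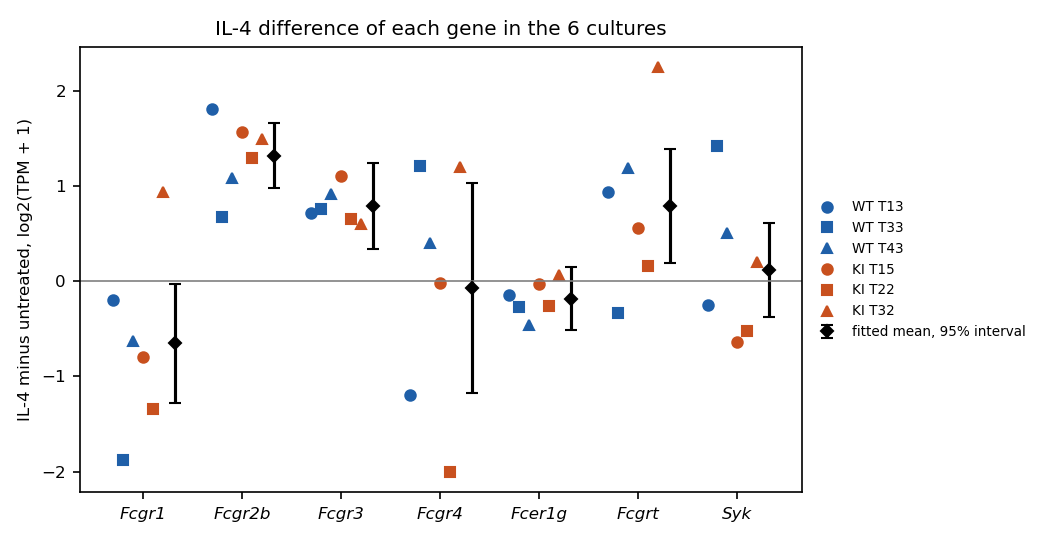
Difference in log2(TPM + 1) between the IL-4 and untreated library of each of the 6 cultures (coloured points), with the fitted mean and its 95% interval (black). All 6 points lie above 0 for *Fcgr2b* and *Fcgr3*, whereas *Fcgr4* and *Syk* have 3 points on each side.

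With IL-4, the share of *Fcgr2b* among the Fcγ receptor transcripts was higher in each culture, whereas that of *Fcgr3* was higher in 3 of 6 and that of *Fcgr4* in 2 of 6. The summed TPM of the 4 receptors was 1.49 to 2.12 times higher in the 6 cultures. *Fcgr2b* made up 16.9% to 22.4% of the sum in untreated WT and 21.5% to 32.7% in WT with IL-4, and 15.3% to 24.6% and 24.8% to 34.8% in KI. Its ratio to the 3 activating receptors was 1.09 (T33) to 2.38 (T13) times its untreated value across the 6 cultures. The share of *Fcgr1* was lower in 5 of 6 cultures and higher in T32. In contrast, *Fcer1g* did not follow the receptors. Its TPM relative to the receptor sum was 4.33 to 5.60 in untreated WT and 2.27 to 2.56 in WT with IL-4, and 2.99 to 4.61 and 1.80 to 2.14 in KI. After IL-4 this ratio stood at 0.40 to 0.60 of its untreated value in the 6 cultures. These ratios are descriptions and were not tested.

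**Figure D3:**
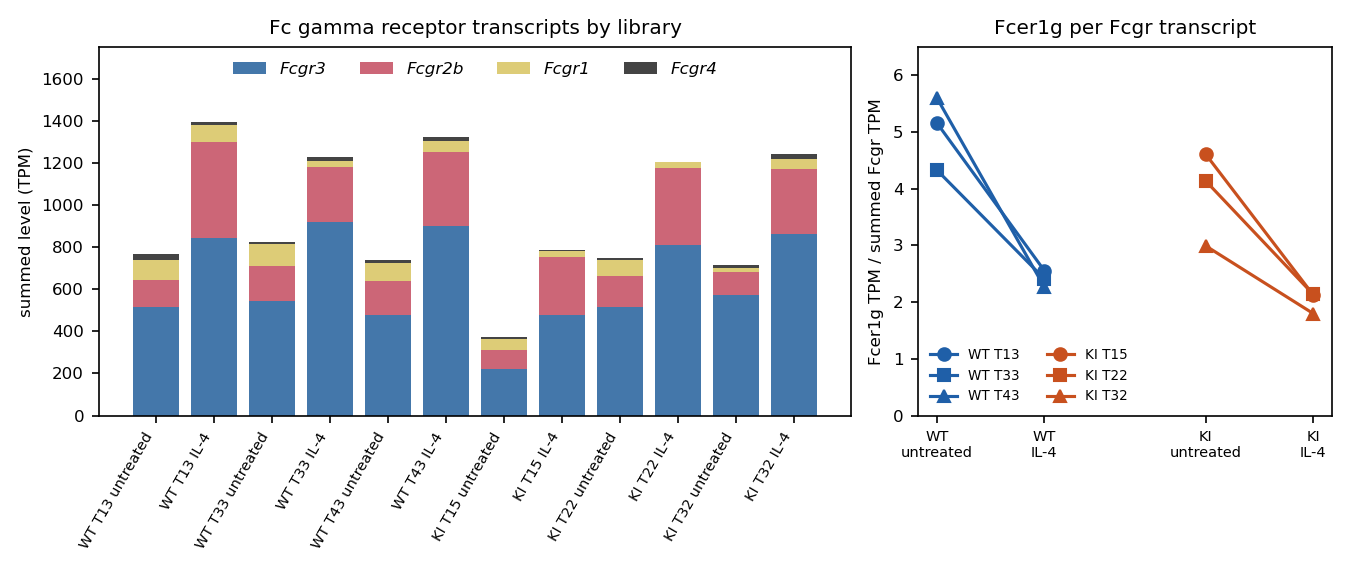
Left, summed TPM of *Fcgr3*, *Fcgr2b*, *Fcgr1* and *Fcgr4* in each of the 12 libraries as stacked bars; right, *Fcer1g* TPM divided by that sum, with a line for each culture. The bars are taller with IL-4 in each culture, and the *Fcer1g* ratio lies between 1.80 and 2.56 in the 6 IL-4 libraries and between 2.99 and 5.60 in the 6 untreated ones.

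The genotype comparison asked whether the R47H knock-in changes this set. None of the 7 genes passed, where 1.65% of all genes tested did. The common γ chain *Fcer1g* came nearest: every KI library was below every WT library of the same treatment, both untreated and after IL-4, which held for 1 of the 7 genes and for 1.23% of all genes tested. In the untreated libraries alone, 2 of the 7 genes (*Fcer1g* and *Fcgr1*) had no overlap with KI below WT, against 4.55% of all genes tested. Of the 7 differences, 6 were below 0, with a median of -0.35, whereas the median of all genes tested was 0.13 higher in KI. Quantile normalization moved that median to -0.08 and median-ratio scaling moved it to 0.02, so the differences stand relative to it.

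*Fcer1g* measured 3949, 3559 and 4140 TPM in T13, T33 and T43 (WT) untreated and 3558, 2958 and 3001 TPM after IL-4. In T15, T22 and T32 (KI) it measured 1716, 3094 and 2135 TPM untreated and 1678, 2579 and 2236 TPM after IL-4. The genotypes did not overlap within either treatment, and T15 was the lowest in both. The difference was -0.68 ± 0.15 (SE; limma, adjusted p = 0.076). With the replicate block the adjusted p (limma) was 0.10, in a fit where 0.687% of all genes passed. It passed in the test of the average difference alone (limma, adjusted p = 0.024), as did 5.13% of all genes, and without culture T22 (-0.86; limma, adjusted p = 0.029). Without any other single culture it did not pass (limma, adjusted p = 0.16 to 0.38), and without T15 the difference was -0.49. Relative to the microglial markers of the same library, which were also lower in KI, the difference was -0.13 with a 95% interval of -0.51 to 0.25. Of the 17 markers tested, 4 passed as lower in KI, where 0.357% of all genes tested did. The paper reports that *C1qa*, *Csf1r* and *Spi1* fell after *Trem2* knockdown. On this scale, genotype effects on the markers and culture make-up cannot be told apart. With IL-4 *Fcer1g* was lower in 5 of 6 cultures, by -0.18 ± 0.15 (SE; limma, adjusted p = 0.98). In order of mean level, untreated WT (3883 ± 296 TPM, SD, n = 3) was above WT with IL-4 (3172 ± 335) with no overlap. The nearest libraries of these groups were at 3559 and 3558 TPM. WT with IL-4 overlapped untreated KI (2315 ± 706), which overlapped KI with IL-4 (2164 ± 455).

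The Fcγ receptors had smaller or less even genotype differences. *Fcgr1* differed by -0.81 ± 0.29 (SE; limma, adjusted p = 0.27), with untreated means of 94.9 ± 11.2 TPM in WT and 50.0 ± 26.1 TPM in KI (SD, n = 3). With IL-4 its means were 54.9 ± 27.4 TPM in WT and 34.5 ± 9.33 TPM in KI, and the genotypes overlapped. The difference was -1.06 in untreated and -0.56 in IL-4 libraries alone. *Fcgr4* differed by -0.87 ± 0.51 (SE; limma, adjusted p = 0.62), a value that ran from -1.41 without T32 to -0.36 without T22. *Fcgr3* differed by -0.35 ± 0.21 (SE; limma, adjusted p = 0.65), a value that was 0.00 without culture T15. *Fcgr2b* differed by -0.28 ± 0.16 (SE; limma, adjusted p = 0.55), with -0.43 without T22 and -0.15 without T15, and *Fcgrt* by -0.03 ± 0.28 (SE; limma, adjusted p = 0.93). Taking values relative to the microglial markers adds the same 0.55 to the genotype difference of every gene, so a sign that turns shows only that the value lay between this shift and 0. On that scale the differences were -0.26 for *Fcgr1*, -0.33 for *Fcgr4*, 0.20 for *Fcgr3*, 0.27 for *Fcgr2b* and 0.51 for *Fcgrt*. None of these passed either. The part of culture make-up in these values was not tested.

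**Figure D4:**
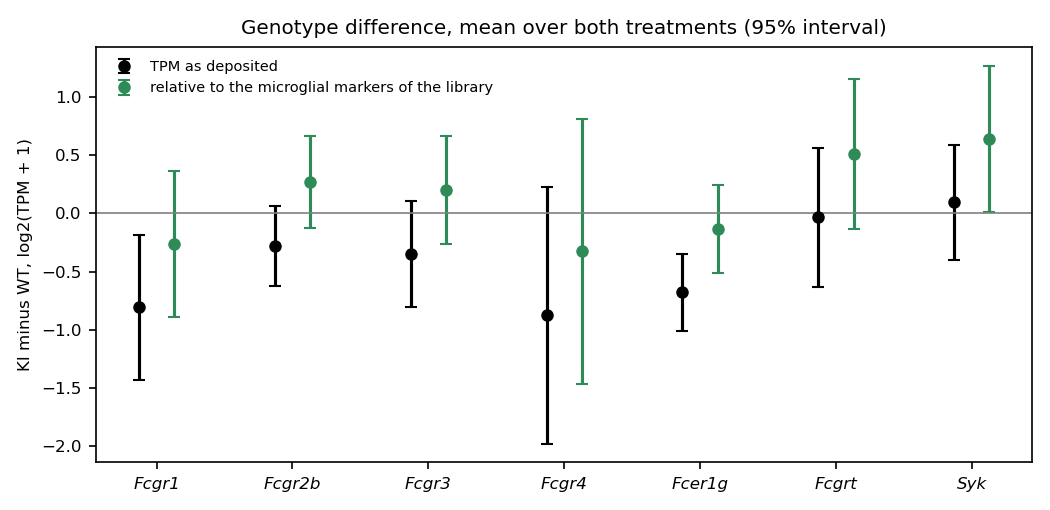
KI minus WT difference in log2(TPM + 1), averaged over both treatments, with 95% intervals from limma, for TPM as deposited (black) and relative to the mean of the microglial markers in the same library (green). The relative scale moves every gene by the same 0.55, which takes *Fcer1g* from -0.68 to -0.13.

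*Syk*, like *Fcgr4*, was higher with IL-4 in 3 cultures and lower in 3. Its WT values were 23.6, 10.2 and 16.8 TPM in T13, T33 and T43 untreated, and 19.6, 29.1 and 24.3 TPM treated. Its KI values were 23.9, 25.9 and 21.4 TPM in T15, T22 and T32 untreated, and 14.9, 17.7 and 24.8 TPM treated. All 4 groups overlapped with their neighbours in order of mean level. The IL-4 difference was 0.56 in WT and -0.32 in KI. The interaction, the IL-4 difference in KI minus that in WT, was -0.88 ± 0.46 (SE; limma, adjusted p = 1.00), and -1.28 (without T13) to -0.45 (without T33) when a culture was left out. It was not uniform: *Syk* was lower with IL-4 in WT culture T13 and higher in KI culture T32. Averaged over treatments, the genotype difference was 0.09 ± 0.23 (SE), and the F-test with the interaction term gave an adjusted p (limma) of 0.54. Quantile normalization turned the difference to -0.15, median-ratio scaling to -0.02, and it was 0.64 relative to the microglial markers, so its sign depended on the scale.

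For the interaction, limma called none of the 7 genes and 0 of the 11204 genes tested (0.0%). Of all genes tested, 357 had an unadjusted p under 0.05, and none of the 7 genes was among them. A difference in IL-4 response between the genotypes was therefore not detectable in these genes with 3 cultures each, and the 95% interval for *Fcgr3*, for example, was -0.92 to 0.90.

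Other Fc receptors and ITAM partners were then examined. Of 11 other Fc receptor genes, 3 were expressed enough to test. *Fcrls*, an Fc receptor-like gene that marks mouse microglia, was the most abundant at 435 to 1517 TPM. It was lower in KI, with a difference of -0.66 ± 0.13 (SE; limma, adjusted p = 0.046) that did not pass with the replicate block (limma, adjusted p = 0.078) or in any of the 6 fits that left out a culture. It was -0.11 relative to the microglial markers. With IL-4 it was higher in 6 of 6 cultures by 0.66 ± 0.13 (SE; limma, adjusted p = 0.068, and 0.0074 with the replicate block). *Fcrl1* (6.98 to 22.4 TPM) and *Trim21*, the cytosolic Fc receptor (4.14 to 18.4 TPM), passed no test. *Fcer1a* (the IgE-binding chain), *Fcmr* (the IgM receptor), *Fcamr* and *Fcrla* were listed at 0 in all 12 libraries, and *Fcrl5*, *Fcrlb*, *Fcer2a* and *Pigr* were at most 3.91 TPM. *Tyrobp* was 2285 to 7436 TPM and below WT in every KI library of the same treatment, with a difference of -0.64 ± 0.20 (SE; limma, adjusted p = 0.21). Its ratio to *Fcer1g* after IL-4 was 1.08 to 1.54 times the untreated ratio in the 6 cultures. *Hcst*, which encodes the adaptor DAP10, passed no test at 29.4 to 106 TPM, and *Cd247*, the T cell ζ chain, was at most 2.88 TPM.

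Of the 47 genes for signalling downstream of activating receptors, 43 were tested. With IL-4, 3 rose and 2 fell, and for genotype 2 fell in KI and none rose. Over all genes tested, 0.75% rose and 0.143% fell with IL-4, and 0.357% fell and 1.29% rose in KI. *Fyn*, a Src family kinase, rose with IL-4 by 1.77 ± 0.22 (SE; limma, adjusted p = 0.0026), and *Prkcd*, the protein kinase C δ, by 1.45 ± 0.17 (SE; limma, adjusted p = 0.0012). *Ncf4*, the p40 subunit of the phagocyte oxidase, rose by 0.77 ± 0.13 (SE; limma, adjusted p = 0.024), whereas *Cybb*, the catalytic subunit of the same oxidase, fell, with a difference of -0.80 ± 0.13 (SE; limma, adjusted p = 0.023). *Lyn*, the Src family kinase that phosphorylates ITAMs and ITIMs, also fell, with WT libraries at 151 to 183 TPM untreated and 111 to 126 TPM treated and a difference of -0.61 ± 0.11 (SE; limma, adjusted p = 0.039). When each culture was omitted in turn, *Fyn* and *Prkcd* passed in 6 of 6 fits, *Cybb* in 2, *Ncf4* in 1 and *Lyn* in 0. With no filter on low levels *Fyn* (limma, adjusted p = 0.064), *Cybb* (0.16) and *Ncf4* (0.088) did not pass, and with no variance trend *Cybb* (0.19), *Ncf4* (0.17) and *Lyn* (0.22) did not. *Fyn* and *Lyn* therefore differed in direction, and each difference was seen in all 6 cultures.

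For genotype, *Ncf4* was 50.4 to 50.9 TPM in untreated KI and 99.7 to 125 TPM in untreated WT cultures, a difference of -0.95 ± 0.13 (SE; limma, adjusted p = 0.0092). *Pik3ap1*, an adaptor that links receptors to PI3 kinase, differed by -1.08 ± 0.18 (SE; limma, adjusted p = 0.020). With the replicate block both passed, *Ncf4* at 0.016 and *Pik3ap1* at 0.045 (limma, adjusted p). *Ncf4* passed in 4 and *Pik3ap1* in 3 of the 6 fits without a culture. Relative to the microglial markers the 2 differences were -0.41 and -0.53 and did not pass. Of the 18 inhibitory genes 17 were tested, and 1 passed for genotype, where 0.357% of all genes tested were lower in KI: *Ptpn6*, the phosphatase SHP-1, was lower, with a difference of -0.81 ± 0.16 (SE; limma, adjusted p = 0.041) that did not pass with the replicate block (limma, adjusted p = 0.082) and passed in 1 of the 6 fits without a culture. It was -0.26 relative to the microglial markers. None of the inhibitory genes passed for IL-4, against 0.893% of all genes tested. The median genotype difference was -0.29 over the activating genes and -0.35 over the inhibitory ones, beside -0.52 over the microglial markers and 0.13 over all genes tested.

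Among 16 other myeloid receptors that use an ITAM and Syk, 10 were tested. Past the threshold, 2 rose and 1 fell with IL-4, where 0.75% and 0.143% of all genes tested did. For genotype 2 were lower in KI and 0 higher, where 0.357% and 1.29% of all genes tested were. With IL-4, *Clec7a* (dectin-1, a receptor for β-glucans) rose by 1.97 ± 0.22 (SE; limma, adjusted p = 0.00090) and *Cd300lb*, which signals through DAP12, by 1.28 ± 0.16 (SE; limma, adjusted p = 0.0026). *Clec4d*, a C-type lectin that signals through the common γ chain, fell by 0.83 on the log2 scale (limma, adjusted p = 0.023), and passed in 3 of the 6 fits that left out a culture but not with no filter (limma, adjusted p = 0.19) or with no variance trend (0.17). For genotype, *Trem2* itself differed by -1.43 ± 0.19 (SE; limma, adjusted p = 0.0076) and *Itgam*, the CD11b chain of complement receptor 3, by -0.85 ± 0.16 (SE; limma, adjusted p = 0.041, and 0.077 with the replicate block). With the replicate block *Trem2* passed (limma, adjusted p = 0.012). Without a culture, *Trem2* passed in 4 and *Itgam* in 0 of 6 fits. With no filter *Trem2* (limma, adjusted p = 0.13) and *Itgam* (0.23) did not pass, nor did they with no variance trend (0.060 and 0.13). The genotype calls of *Ncf4*, *Pik3ap1*, *Ptpn6* and *Fcrls* were also lost under both settings, at adjusted p (limma) of 0.058 to 0.24. Relative to the microglial markers, of which *Itgam* is 1, *Trem2* differed by -0.88 (limma, adjusted p = 0.038) and *Itgam* by -0.30 (adjusted p = 0.34). On that scale the IL-4 differences of *Fcgr2b*, *Fyn*, *Prkcd*, *Clec7a* and *Cd300lb* passed, and those of *Ncf4* (0.80), *Cybb* (-0.77), *Lyn* (-0.58) and *Clec4d* (-0.81) did not, although every IL-4 difference moved by only 0.03. Of the receptors that use the common γ chain, *Fcgr3*, which did not pass, was higher with IL-4 in 6 of 6 cultures and *Clec4d* lower in 6 of 6. Of all genes tested, 5.73% were higher in 6 of 6 cultures, and the share lower in 6 of 6 was not computed.

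**Figure D5:**
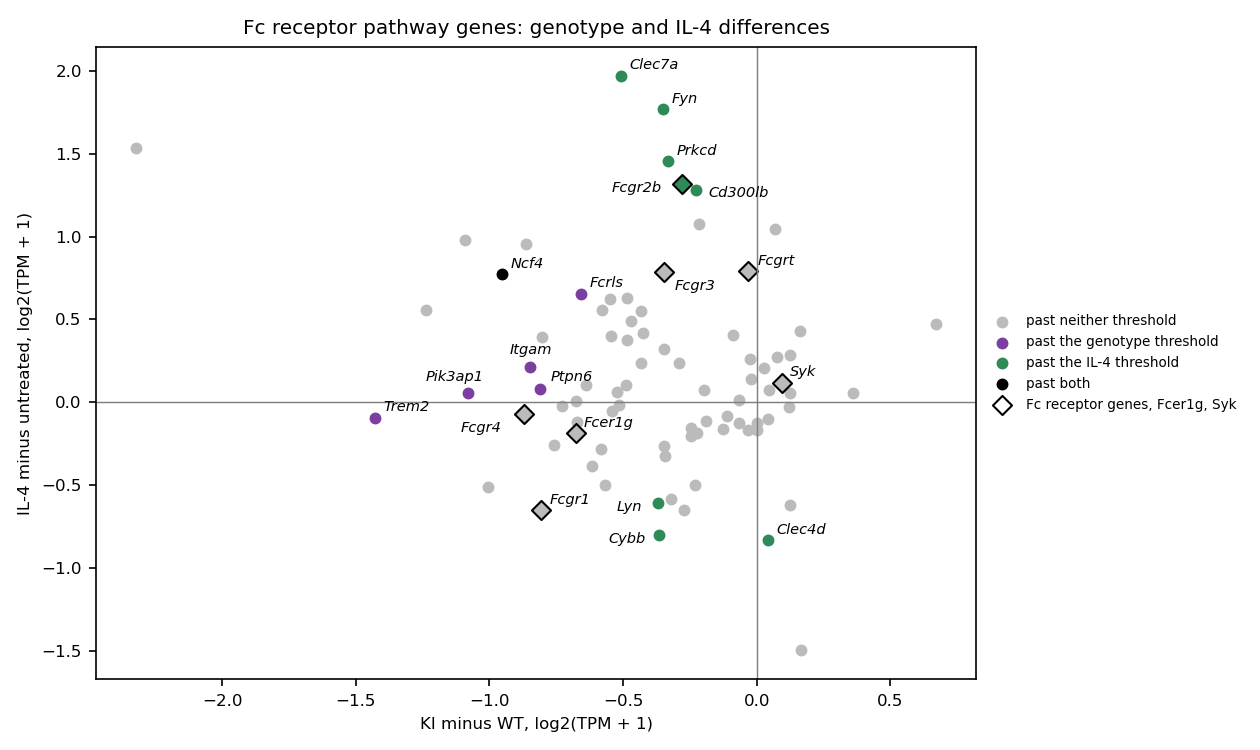
Genotype difference (horizontal) and IL-4 difference (vertical) in log2(TPM + 1) for each tested gene of the 7 followed here (diamonds) and of the 5 pathway lists (circles), coloured by which threshold it passed. *Fcgr2b* lies among *Fyn*, *Prkcd*, *Clec7a* and *Cd300lb* at IL-4 differences of 1.28 to 1.97, and *Ncf4* passed both tests.

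The genes whose levels were most like those of each member over the 12 libraries were found by Pearson's r of log2(TPM + 1). The libraries share cultures and treatments, so r is given as a description. *Clec7a* (0.98), *Smap2* (0.97) and *Gm5345* (0.96) were nearest to *Fcgr2b*, and *Csf2ra* (0.97), *Bcl2a1b* (0.96) and *Crip1* (0.95) to *Fcgr3*. For *Fcer1g* they were *Gngt2* (0.92), *Tnfaip8l2* (0.92) and *Tmsb4x* (0.91). For *Fcgr1* they were *Smim14* (0.83), *Chst12* (0.82) and *Gm19705* (0.82), for *Fcgr4* *Ptrh2* (0.93), *Clec4a2* (0.83) and *Smpd5* (0.83), for *Fcgrt* *Pcbp2* (0.86), *Zbp1* (0.83) and *Jak2* (0.82), and for *Syk* *Fig4* (0.89), *Rsph3a* (0.87) and *Pagr1a* (0.86). Among the 7 genes themselves, r was 0.80 between *Fcgr2b* and *Fcgr3* and 0.71 between *Fcgr1* and *Fcer1g*, and between *Syk* and *Fcer1g* it was -0.11.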

How the data were processed

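RNA-seq libraries of 6 primary microglial cultures, each untreated and with IL-4, were analysed. The authors prepared poly(A)-primed SMART-Seq v4 libraries and sequenced them as paired ends. Trim Galore removed adaptors, Salmon estimated transcript abundance on ENSEMBL GRCm38 with corrections for GC content and position, and tximport gave gene values. The deposited values are TPM per gene and library, from which read counts per library and counting error could not be computed. The counts that the authors tested with DESeq2 were not used here, and limma was run on the TPM.

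Identifiers were matched to GENCODE annotation on GRCm38 (48350 of 48623 named). After the log2(TPM + 1) transformation, limma 3.58.1 (R 4.3.3; variance trend; genotype, IL-4 and interaction) was fitted to the 11204 genes whose mean exceeded 1.5, with Benjamini-Hochberg adjusted p under 0.05 as the threshold. The pseudocount of 1 understates changes of low genes. Python 3.11.15, numpy 2.4.6, pandas 2.3.3 and matplotlib 3.10.9 served for tables and plots. The fit was tested on simulated data. The untreated and IL-4 libraries of a culture were paired by the number their titles share, taken to mark the culture; deviations from the group means correlated within a culture at 0.08 to 0.38 and between cultures of a genotype at -0.30 to 0.19. Between untreated T22 and IL-4-treated T32 the value (0.19) exceeded those within T22 (0.12) and T32 (0.08), so the pairing rests on the titles. The pairing entered an alternative fit, as a random replicate block for genotype (within-culture correlation 0.198) and a fixed one for IL-4 and the interaction. Alternatives were a pseudocount of 0.1, no filter, a filter at 3, the replicate block, quantile and median-ratio scaling, a fit with no variance trend, single contrasts, values relative to 18 microglial markers, and leaving out each culture.

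The members and lists were chosen with earlier results of these data known. Named genes were the 7 members, *Trem2* as a check, tested genes of the other Fc receptor and adaptor lists, genes of 3 further pathway lists past a threshold, and for each member the 3 most correlated genes. Marker genes and untested genes were named in addition, after their values were seen. Markers of oligodendrocyte lineage summed to 69.5 to 137 TPM in untreated WT and 146 to 547 TPM in untreated KI libraries. After IL-4 they summed to 81.3 to 151 TPM in WT and 143 to 377 TPM in KI. Endothelial markers, mostly *Flt1*, summed to 19.4 to 29.1 TPM in untreated and 61.0 to 142 TPM in IL-4 libraries. Over the libraries, neuronal markers summed to 2.03 to 39.5 TPM and those of lymphocytes and granulocytes to 0.032 to 15.0 TPM. The check of the IL-4 label by a single gene is not reported here.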

Additional observations from a re-analysis of the deposited data

How the results depend on the processing

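*Fcgr2b* passed the IL-4 threshold in all 17 alternatives run, with adjusted p (limma) of 0.00037 to 0.049 and differences of 1.16 to 1.45. *Fcgr3* passed for IL-4 in 2 of 17 and *Fcer1g* for genotype in 2 of 17, and the other genes in none. The replicate block changed no call of the 7 genes other than that of *Fcgr3*.

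For genotype 185 genes passed (145 higher, 40 lower in KI, or 84 and 57 on quantile-normalized values and 130 and 62 on values scaled by median ratios). The count was 16 with no filter, 26 with no variance trend, 77 with the replicate block (all among the 185), 575 in the 1-coefficient test, 102 in untreated and 2 in IL-4 libraries, and 3 to 192 when a culture was left out (48 without T15, 79 without T32, 3 without T33 and 16 without T43). For IL-4 100 passed, with 61, 50, 240 (99 of the 100 among them) and 151 under the first 4 of these settings, 64 within WT, 45 within KI, and 46 to 144 when a culture was left out (56 without T13, 65 without T32, 51 without T33 and 46 without T43). For the interaction 0 passed, and 4 with no filter. The causes were not tested.

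Signs turned only for values that did not pass. For genotype, relative to the microglial markers, they were 0.27 for *Fcgr2b*, 0.20 for *Fcgr3* and 0.51 for *Fcgrt*. In IL-4 libraries alone they were 0.16 for *Fcgrt* and -0.35 for *Syk*, and *Syk* was -0.15 on quantile-normalized values and -0.020 on values scaled by median ratios. When a culture was left out, *Fcgr3* ranged from -0.55 to 0.0006 (turned without T15) and *Fcgrt* from -0.21 to 0.17 (without T13, T22 and T32). For IL-4, *Fcgr4* was 0.14 within WT and -0.44 to 0.36 when a culture was left out (turned without T13 and T22), and *Syk* was -0.32 within KI and -0.10 to 0.32 (without T32 and T33). For the interaction, *Fcgr3* was 0.074 on quantile-normalized values. The ranges without a culture were -0.17 to 0.97 for *Fcgr1* (turned without T32), -0.17 to 0.083 for *Fcgr3* (without T22, T32 and T43), -1.15 to 0.46 for *Fcgr4* (without T22 and T33) and -0.24 to 0.80 for *Fcgrt* (without T32 and T33).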
